A study of Mus musculus with 12 samples.

Results

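Ventral hippocampus RNA was compared between 3 stress-susceptible mice whose behaviour improved after voluntary wheel running (effective responders, called SES here as in the series text) and 3 unstressed controls (C). They are 6 of the 12 mice of the series, which has 4 groups of 3. The members were chosen by their labels, with earlier results of these data known. The SES sample titles name an effective response to running, and the treatment label of C reads None. The comparison asks what still set the hippocampus of effective responders apart from that of unstressed mice although their behaviour had improved. All mice were wild-type male C57BL/6J, obtained naive at 8 weeks of age, and the controls had neither restraint nor a wheel. SES mice were restrained in a tube for 2 hours a day on 14 days and then given a running wheel, for 14 days by the sample titles but 4 weeks by the written protocol. The remaining groups enter only beside the result: sedentary stress-susceptible mice (SS) and wheel-running mice whose behaviour did not improve (ineffective responders, SER), both restrained in the same way. No group had running without restraint, so the effects of stress, of running and of being selected as an effective responder cannot be told apart in SES against C. Nothing in the labels says that animals were pooled, and each library is labelled as 1 mouse.

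Restraint stress releases corticosterone, which acts on the glucocorticoid receptor and the mineralocorticoid receptor in hippocampal cells, and the activated glucocorticoid receptor switches on a set of target genes such as Fkbp5, a chaperone that dampens the receptor in turn. The ventral part of the hippocampus is tied to anxiety and mood, and its granule cells, pyramidal neurons, astrocytes and myelin-forming oligodendrocytes have all been studied under chronic stress and under running. Sterol synthesis supplies the cholesterol of myelin and synapses, and the genes of that pathway are driven together by the transcription factor SREBP2 when cell sterols are low.

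The C libraries held 10612290, 14041951 and 11774367 counts (mice 2, 8 and 12), and the SES libraries held 15707516, 14916421 and 13378597 counts (mice 9, 10 and 12). Expression is given as CPM, counts scaled to library size. Correlations of log2 CPM over all genes tested ran from 0.978 to 0.985 among C, from 0.985 to 0.987 among SES and from 0.968 to 0.984 between SES and C. Pairs of libraries within a group differed by 10.9 to 17.7 times what counting noise gives, so no library appeared to be deposited again under another number. Malat1, a long noncoding RNA kept in the nucleus, had 505.5, 262.8 and 489.2 CPM in C mice 2, 8 and 12 and 1067.8, 1381.4 and 1974 CPM in SES mice 9, 10 and 12 (log2 fold change 1.81 ± 0.57, SE; adjusted p = 0.167). All 3 SES mice stood above all 3 C mice, and in SS the same RNA spanned 505 to 5257.3 CPM. Choroid plexus markers varied from mouse to mouse: Ttr, the transthyretin gene, had 3546 CPM in C mouse 2 against 2.783 and 20.1 in C mice 8 and 12, and 821.6, 4699.7 and 2468.9 in the SES mice. In bulk tissue, fewer cells of a type and less RNA per cell cannot be told apart.

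Between SES and C, 26 of the 14541 genes tested passed at an adjusted p under 0.05 (0.179%), 19 higher in SES (0.131%) and 7 lower (0.0481%). Differences are log2 fold changes with standard errors, tested with edgeR's quasi-likelihood test and adjusted over all genes tested. Of the higher genes, 18 are described here: Rtp1, Pla2g3, Kirrel2, Alox12b, Sult1a1, Tfcp2l1, Mfsd2a, Hif3a, Slc24a4, Pdzd2, Fam107a, Mertk, Prodh, Sowaha, Lrrc8a, Dapk1, Diap1 and Mink1. The 7 lower genes were Opalin, Fabp7, Pllp, Msmo1, Hmgcs1, Fabp5 and Tagln3. In each of the 26, the 3 SES values and the 3 C values did not overlap. Over all genes tested such separation was common, at 1868 genes with SES above C (12.8%) and 1919 with SES below C (13.2%), and the median log2 fold change was 0.00. At an unadjusted p under 0.05 there were 2353 genes, and the smallest adjusted p was 0.00885.

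Calls rested on all 6 libraries. Leaving out C mouse 2 gave 27 calls, of which 16 were among the 26. Leaving out C mouse 8 gave 4 calls and C mouse 12 gave 16, with 4 and 12 of the 26. Leaving out SES mouse 9 or SES mouse 10 gave 7 calls each, all 7 among the 26, and leaving out SES mouse 12 gave 0 (1545 genes then had an unadjusted p under 0.05). The direction of each of the 26 held in all 6 of these fits, which their separated groups made all but certain beforehand. The call itself held in 5 of the 6 for Alox12b and Fam107a and in 4 for Opalin. It held in 2 for Fabp7, Hmgcs1, Msmo1 and Hif3a and in 1 for Sult1a1, Mertk, Pllp and Mfsd2a. For Pdzd2, Tfcp2l1 and Diap1 it held in 0.

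**Figure D1:**
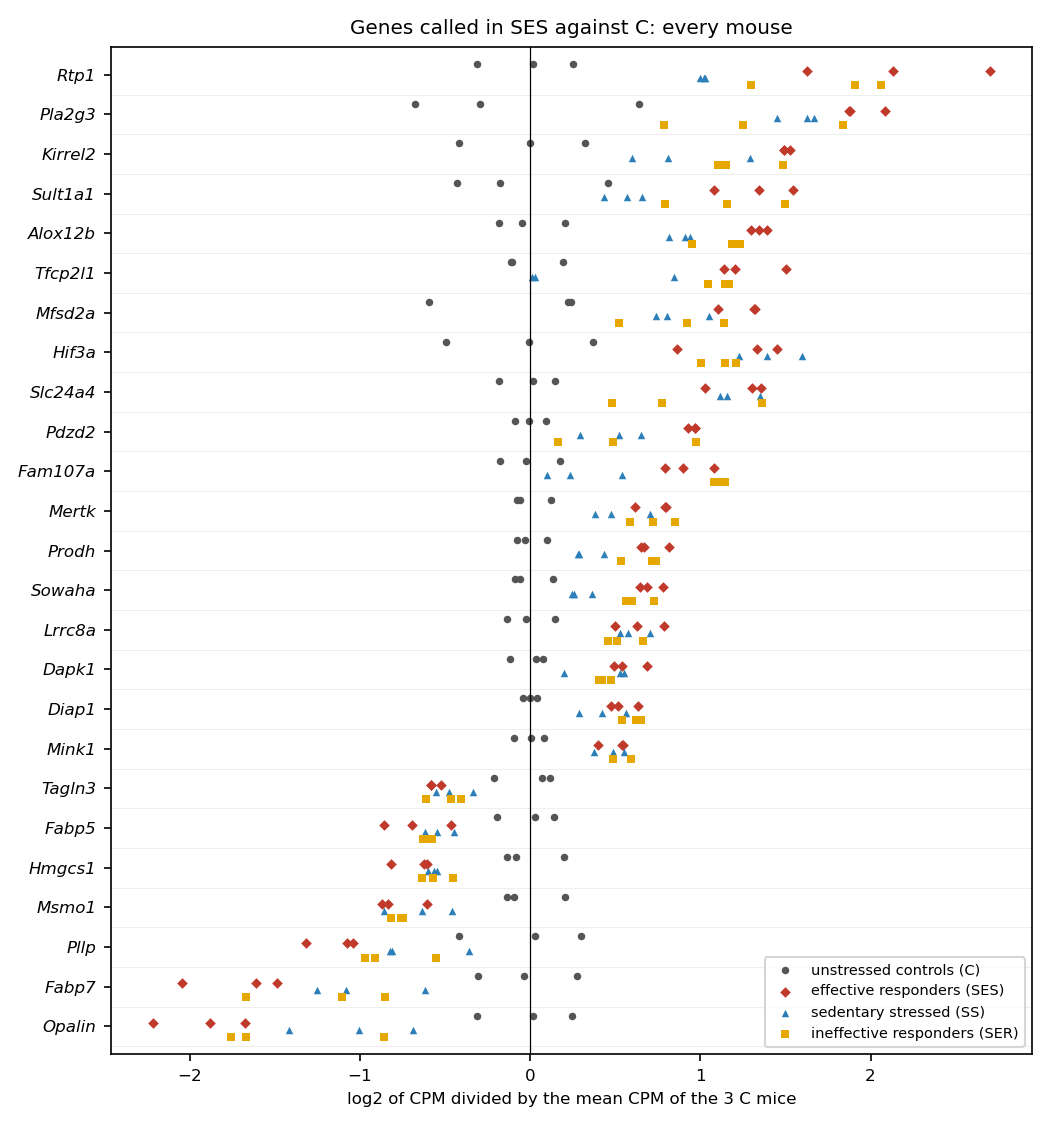
Each point is 1 mouse, placed by the log2 of its CPM divided by the mean CPM of the 3 C mice (x axis), for 25 of the 26 genes that differed between SES and C (rows); grey circles are C, red diamonds SES, blue triangles SS and orange squares SER. Red and grey do not overlap in any row, while the SS and SER mice lie on the same side of the C mean in every row; rows were chosen by SES against C.

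All gene lists were written with earlier results of these data known, so their counts beside the shares over all genes are descriptions only. Genes known to be induced by glucocorticoids were the list with most called members. Of 25 listed genes 24 were measured. Of these 4 rose (Fam107a, Sult1a1, Hif3a and Mertk), 0 fell and 20 did not pass. Over all genes tested 0.131% were called higher and 0.0481% lower. The list's median was 0.56, all 24 values were positive and 14 had all SES mice above all C mice, beside 12.8% of all genes tested. Relative to the C mean the list's median stood at −0.09, −0.13 and 0.32 in C mice 2, 8 and 12 and at 0.51, 0.52 and 0.60 in SES mice 9, 10 and 12, so C mouse 12 lay closest to SES. Across the alternative settings the median stayed between 0.46 and 0.69.

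Fam107a encodes an actin-bundling protein that was described as a stress-responsive gene of the hippocampus (mm10, chromosome 14, 8296270 to 8317607). It had 586.2, 671 and 527 CPM in C mice 2, 8 and 12 and 1109.3, 1028.8 and 1255.7 CPM in SES mice 9, 10 and 12. The lowest SES mouse stood well above the highest C mouse, at means of 1131 ± 115 and 594.7 ± 72.4 CPM (SD, n = 3) (log2 fold change 0.93 ± 0.13, adjusted p = 0.00885). The call held in 5 of the 6 fits that left out a mouse, all but that without SES mouse 12.

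Hif3a, a hypoxia-inducible factor subunit that limits the action of its relatives (chromosome 7, 17030993 to 17062427), had 5.89, 4.21 and 7.65 CPM in C and 14.9, 10.8 and 16.2 CPM in SES. SES mice again stood apart from C, although SES mouse 10 was nearer to C than the other two. The log2 fold change was 1.24 ± 0.21 (adjusted p = 0.0349). Sult1a1, a sulfotransferase that conjugates phenols and catecholamines (chromosome 7, 126672865 to 126690443), had 17.6, 9.49 and 11.3 CPM in C and 32.5, 27.1 and 37.4 CPM in SES (log2 fold change 1.34 ± 0.22, adjusted p = 0.0349). Mertk, a receptor tyrosine kinase by which astrocytes and macrophages take up dying cells and synapses (chromosome 2, 128698915 to 128803162), had 32.9, 28.7 and 29.0 CPM in C and 52.5, 46.3 and 52.4 CPM in SES (log2 fold change 0.74 ± 0.11, adjusted p = 0.0278). The lowest SES value was above the highest C value for both.

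The classical targets were less clearly separated. Fkbp5 had 68.5, 61.3 and 96.9 CPM in C and 115.3, 110.2 and 154.6 CPM in SES. The groups did not overlap, but C mouse 12 and SES mouse 10 lay close together, and the difference of 0.75 ± 0.22 on the log2 scale did not pass (adjusted p = 0.148). The largest estimates of the list, Plin4 at 2.62 ± 0.63 and Cdkn1a at 1.56 ± 0.40, did not pass either (adjusted p = 0.123 and 0.126). Zbtb16, a zinc finger transcription factor, and Htra1, a secreted serine protease, missed the threshold more narrowly, at 0.63 ± 0.12 (adjusted p = 0.0637) and 0.65 ± 0.13 (adjusted p = 0.0668). Klf9, Dusp1 and Tsc22d3, also standard targets, had 0.20 ± 0.14, 0.18 ± 0.22 and 0.31 ± 0.31.

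Promoter letters are shown for 2 of the 4 called members because both hold the TGTTCT half-site of the glucocorticoid receptor's recognition sequence more than once. Both windows are the 250 bases before a RefSeq transcript start (GRCm38.p6, the mm10 assembly), read 5′ to 3′ on the gene's own strand, and both starts lie within the gene rather than at its outermost end. Capitals mark TGTTCT on either strand (AGAACA is its reverse complement). The Sult1a1 window is chr7:126676419-126676668, minus strand, and the Fam107a window chr14:8309780-8310029, minus strand.
Sult1a1: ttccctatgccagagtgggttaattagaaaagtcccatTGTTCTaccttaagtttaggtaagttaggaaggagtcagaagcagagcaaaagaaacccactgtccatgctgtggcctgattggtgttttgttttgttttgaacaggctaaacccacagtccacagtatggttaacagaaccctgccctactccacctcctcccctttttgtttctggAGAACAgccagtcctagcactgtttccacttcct
Fam107a: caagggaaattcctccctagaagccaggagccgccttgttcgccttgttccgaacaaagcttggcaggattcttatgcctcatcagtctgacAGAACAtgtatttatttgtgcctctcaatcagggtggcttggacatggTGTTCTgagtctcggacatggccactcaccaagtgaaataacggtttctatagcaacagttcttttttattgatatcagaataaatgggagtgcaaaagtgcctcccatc
Each window held 2 matches, while the windows of Hif3a and Mertk held none. TGTTCT occurred at least once in 16.1% of 32817 mouse promoter windows of the same length, so a match is a description of these letters and not a binding site.

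The hormone receptors themselves were not called. Nr3c1, the glucocorticoid receptor, had 109.7, 130.2 and 94.4 CPM in C and 106.5, 91.2 and 88.7 CPM in SES, with overlapping groups (−0.22 ± 0.14, adjusted p = 0.433). Nr3c2, the mineralocorticoid receptor, had 0.10 ± 0.16 (adjusted p = 0.792). None of the 13 measured receptors and regulators passed, with a median of 0.06 and 7 positive values. Among them Ncoa1, a coactivator of the receptors, had 0.35 ± 0.09 (adjusted p = 0.123) and Hsp90aa1, a subunit of the chaperone that holds the receptor ready for hormone, −0.33 ± 0.11 (adjusted p = 0.179).

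None of the 17 circadian clock genes passed, with a median of 0.01. In 7 of them all SES mice stood above all C mice and in 0 below, beside 12.8% and 13.2% of all genes tested. The 7 were the period genes Per1 (0.47 ± 0.16), Per2 (0.82 ± 0.36) and Per3 (0.89 ± 0.33), the cryptochromes Cry1 (0.41 ± 0.15) and Cry2 (0.19 ± 0.09), Bhlhe40 (0.29 ± 0.14) and Tef (0.29 ± 0.10). Their activators Clock and Arntl had 0.01 ± 0.07 and 0.05 ± 0.25. The labels give no hour at which tissue was taken.

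Of the 22 measured sterol synthesis genes 2 fell, with 0 rising and 20 not passing, beside 0.0481% of all genes tested called lower. Hmgcs1 makes the HMG-CoA from which the pathway starts (chromosome 13, 119690351 to 119708260). It had 283.4, 357.8 and 294.3 CPM in C mice 2, 8 and 12 and 204.8, 176.9 and 202.7 CPM in SES mice 9, 10 and 12. All SES mice lay below all C mice, at means of 195 ± 15.6 against 312 ± 40.2 CPM (SD, n = 3) (log2 fold change −0.68 ± 0.10, adjusted p = 0.017).

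Msmo1 removes methyl groups from the sterol ring late in the pathway (chromosome 8, 64718123 to 64733578). It had 98.8, 121.2 and 95.8 CPM in C and 69.2, 59.0 and 57.5 CPM in SES, without overlap (−0.77 ± 0.12, adjusted p = 0.0313). Over the whole list the median was −0.29, 21 of 22 values were negative, and 12 had all SES mice below all C mice, beside 13.2% of all genes tested. Idi1 (−0.70 ± 0.18), Cyp51 (−0.58 ± 0.13), Sqle (−0.53 ± 0.12), Insig1 (−0.48 ± 0.17) and Fdps (−0.41 ± 0.12) had the next largest negative estimates among genes with separated groups, at adjusted p-values from 0.104 to 0.214. The exception in sign was Srebf2, the gene of the pathway's own activator SREBP2, at 0.13 ± 0.09. The list's median ran from −0.41 to −0.20 over the alternative settings.

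The promoters of the 2 called sterol genes are shown for the letters that SREBP2 and its partner NF-Y are known to use. Capitals mark TCACNCCAC, a form of the sterol regulatory element (N is any base), and CCAAT, the NF-Y element, each on either strand (ATTGG is the reverse complement of CCAAT). Both windows are the 250 bases before the RefSeq start in GRCm38.p6, 5′ to 3′ on the gene's strand, at chr13:119690101-119690350 on the plus strand for Hmgcs1 and chr8:64733579-64733828 on the minus strand for Msmo1.
Hmgcs1: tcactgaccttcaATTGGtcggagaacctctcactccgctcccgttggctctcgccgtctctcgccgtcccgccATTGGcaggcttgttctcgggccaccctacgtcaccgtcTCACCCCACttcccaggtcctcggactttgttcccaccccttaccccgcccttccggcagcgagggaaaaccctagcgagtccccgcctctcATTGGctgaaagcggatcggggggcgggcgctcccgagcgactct
Msmo1: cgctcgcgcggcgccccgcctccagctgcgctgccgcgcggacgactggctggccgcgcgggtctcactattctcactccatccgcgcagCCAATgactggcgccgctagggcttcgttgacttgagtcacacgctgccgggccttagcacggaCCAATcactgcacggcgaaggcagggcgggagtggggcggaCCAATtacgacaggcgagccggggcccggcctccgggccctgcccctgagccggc
Hmgcs1 held 1 TCACNCCAC match and 3 CCAAT matches, and Msmo1 held 3 CCAAT matches and no TCACNCCAC in this window. TCACNCCAC occurred in 1.05% of the 32817 promoter windows and CCAAT in 33.8%.

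**Figure D2:**
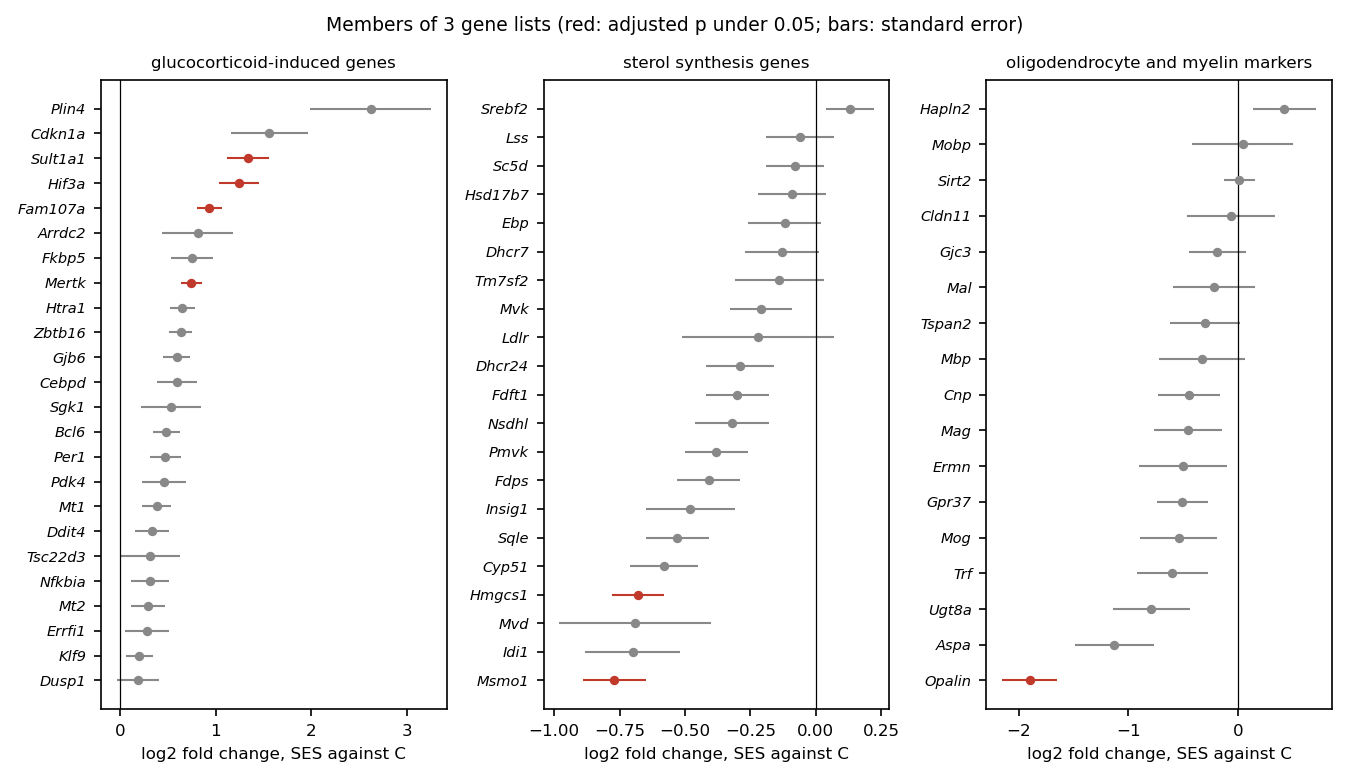
Log2 fold change of SES against C (x axis, with standard error bars) for 24, 21 and 17 measured members of 3 gene lists: glucocorticoid-induced genes, sterol synthesis genes, and oligodendrocyte and myelin markers. Red points passed an adjusted p under 0.05; all 24 glucocorticoid-induced values are positive, 20 of the 21 sterol values drawn are negative, and the myelin markers spread from −1.90 (Opalin) to 0.42 (Hapln2).

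The largest falls were those of Opalin, Fabp7 and Pllp. Opalin, a membrane protein found in the myelin loops of oligodendrocytes (chromosome 19, 41061959 to 41077113), had 30.5, 24.3 and 35.7 CPM in C mice 2, 8 and 12 and 8.18, 9.44 and 6.48 CPM in SES mice 9, 10 and 12. The highest SES mouse had less than the lowest C mouse, and the means were 8.03 ± 1.49 and 30.1 ± 5.7 CPM (SD, n = 3) (log2 fold change −1.90 ± 0.25, adjusted p = 0.00885). Pllp, which encodes the myelin protein plasmolipin (chromosome 8, 94674895 to 94696242), had 62.9, 46.3 and 76.1 CPM in C and 29.4, 30.1 and 24.9 CPM in SES, also without overlap (−1.13 ± 0.18, adjusted p = 0.0344).

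Of 18 oligodendrocyte and myelin markers, Opalin fell, 0 rose and 17 did not pass, beside 0.0481% of all genes tested called lower. Values were negative in 15 of the 18, and 3 had all SES mice below all C mice (Opalin, Aspa at −1.13 ± 0.36 and Ugt8a at −0.79 ± 0.35), beside 13.2% of all genes tested. The major myelin proteins had estimates with wide errors, Mog at −0.54 ± 0.35, Mbp at −0.33 ± 0.39 and Mobp at 0.04 ± 0.46. Summed over the 18 markers, the level was 9174.9, 6741.4 and 10991.5 CPM in C mice 2, 8 and 12 and 6694.1, 8396.8 and 5326.8 CPM in SES mice 9, 10 and 12, so the groups overlapped. The list's median was −0.45, and it was 0.02 when the level of nuclear noncoding RNA was a covariate. That level itself separated SES from C. In this setting Opalin stayed called (−1.67, adjusted p = 0.0326) and Pllp did not (−0.96, adjusted p = 0.0745). The 12 oligodendrocyte precursor markers had a median of 0.06 and none was called.

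Fabp7, the brain fatty acid-binding protein of radial glia, astrocytes and precursor cells (chromosome 10, 57784923 to 57788450), had 51.2, 76.5 and 61.7 CPM in C and 20.7, 15.3 and 22.5 CPM in SES. The highest SES value was under the lowest C value (log2 fold change −1.70 ± 0.23, adjusted p = 0.00885). Its relative Fabp5 (chromosome 3, 10012585 to 10016610) had 115.7, 135.2 and 145.8 CPM in C and 95.8, 81.7 and 73.0 CPM in SES (−0.66 ± 0.11, adjusted p = 0.0349).

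The astrocyte list did not share the direction of Fabp7. None of its 18 markers passed and their median was 0.20, with 7 fully above and 3 fully below C, beside 12.8% and 13.2% of all genes tested. Gjb6, a connexin of astrocyte gap junctions, had 0.59 ± 0.14 (adjusted p = 0.123), Fgfr3 0.54 ± 0.11 (adjusted p = 0.0984) and Glul, glutamine synthetase, 0.44 ± 0.12 (adjusted p = 0.139). The water channel gene Aqp4 was on the other side at −0.41 ± 0.18, and Gfap had 0.01 ± 0.24. Since Gjb6 also stands on the glucocorticoid-induced list and Mertk is expressed by astrocytes, the astrocyte list and the glucocorticoid-induced list share members and sources, both medians were positive in SES, and the part of the one in the other was not tested.

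Mfsd2a carries lysophospholipids with docosahexaenoic acid across the blood-brain barrier (chromosome 4, 122946850 to 122961194). It had 19.8, 11.1 and 19.6 CPM in C and 42.0, 36.1 and 41.9 CPM in SES (1.25 ± 0.21, adjusted p = 0.0349), and every SES mouse exceeded every C mouse. The lipoxygenase gene Alox12b, best known from the skin barrier (chromosome 11, 69157072 to 69169791), had 4.40, 4.00 and 5.24 CPM in C and 11.9, 11.2 and 11.5 CPM in SES. The SES mice were tightly grouped at 2.54 times the C level (1.34 ± 0.16, adjusted p = 0.00885), and its call held in 5 of the 6 fits that left out a mouse. Pla2g3, a secreted phospholipase (chromosome 11, 3488158 to 3499346), was the least abundant called gene at 1.496, 0.785 and 0.601 CPM in C and 3.53, 4.08 and 3.54 CPM in SES (1.96 ± 0.35, adjusted p = 0.0457).

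Kirrel2, an adhesion molecule of the immunoglobulin family (chromosome 7, 30447766 to 30457515), had 11.8, 7.07 and 9.45 CPM in C and 27.2, 26.5 and 26.5 CPM in SES (1.51 ± 0.20, adjusted p = 0.00885). The 3 SES mice lay close together, far above the highest C mouse. Diap1, the formin gene that RefSeq lists as Diaph1 and that nucleates actin filaments, had a log2 fold change of 0.54 ± 0.09 in SES, which passed (adjusted p = 0.0344). Tagln3, a neuronal calponin-family protein, fell from 187.8, 228.8 and 236.6 CPM in C to 145.6, 151.5 and 145.3 CPM in SES (−0.56 ± 0.10, adjusted p = 0.0419).

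Lrrc8a, the obligatory subunit of the volume-regulated anion channel, had 39.4, 36.4 and 44.2 CPM in C and 56.5, 61.9 and 69.0 CPM in SES (0.64 ± 0.11, adjusted p = 0.0349). The potassium-dependent sodium-calcium exchanger gene Slc24a4 had 5.42, 5.92 and 4.72 CPM in C and 13.2, 10.9 and 13.7 CPM in SES (1.23 ± 0.21, adjusted p = 0.0349). The death-associated kinase gene Dapk1 rose by 0.58 ± 0.10 (adjusted p = 0.0419) and the Ste20-family kinase gene Mink1 by 0.50 ± 0.08 (adjusted p = 0.0349), both on the log2 scale. In Lrrc8a, Slc24a4, Dapk1 and Mink1 every SES mouse exceeded every C mouse, but the call of Lrrc8a held in 1 of the 6 fits that left out a mouse and those of the other three in 0.

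Prodh, the mitochondrial enzyme that starts proline breakdown (chromosome 16, 18071726 to 18089283), had 33.1, 29.3 and 30.2 CPM in C and 49.1, 54.4 and 48.6 CPM in SES (0.72 ± 0.10, adjusted p = 0.011). Sowaha, an ankyrin-repeat gene (chromosome 11, 53476578 to 53480195), had 168.9, 172.3 and 197.2 CPM in C and 288.6, 280.9 and 309 CPM in SES (0.71 ± 0.09, adjusted p = 0.00885). Rtp1, which helps odorant receptors reach the cell surface (chromosome 16, 23429133 to 23433960), had 2.43, 1.64 and 2.06 CPM in C and 13.3, 6.29 and 8.96 CPM in SES. Its log2 fold change of 2.22 ± 0.30 (adjusted p = 0.00885) was the largest of the 26 in size, although SES mouse 10 had less than 0.5 times the level of SES mouse 9. The transcription factor gene Tfcp2l1 had 5.52, 4.50 and 4.47 CPM in C and 11.1, 10.6 and 13.7 CPM in SES (1.29 ± 0.22, adjusted p = 0.0349), without overlap.

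Markers of hippocampal neuron types showed 1 call. Pdzd2, a PDZ-domain gene listed as a marker of dentate granule cells (chromosome 15, 12359711 to 12739968), had 34.1, 30.1 and 31.9 CPM in C and 62.7, 62.7 and 61.0 CPM in SES (0.96 ± 0.16, adjusted p = 0.0356). Among all 15 dentate markers 1 rose and 14 did not pass, beside 0.131% of all genes tested called higher. The median was 0.41 and 7 had all SES mice above all C mice, beside 12.8% of all genes tested. The defining granule cell transcription factor Prox1 had 0.46 ± 0.19 (adjusted p = 0.256), Glis3 0.78 ± 0.26 and Rfx3 0.51 ± 0.15, whereas Calb1, the calbindin of mature granule cells, had 0.18 ± 0.14. Dcx and Neurod1, genes of newborn neurons, had 0.16 ± 0.25 and 0.20 ± 0.18, and none of the 10 measured immature neuron markers passed.

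CA1 and subiculum markers (15 genes, median 0.24) and CA2 and CA3 markers (15 genes, median −0.15) had no call. The CA1 list had 11 positive and 4 negative values, with 3 fully above C and 0 fully below. The CA2 and CA3 list had 5 positive and 10 negative values, with 0 fully above C and 3 fully below. Over all genes tested these shares were 12.8% above and 13.2% below. Spink8, a CA1 marker, had 23.1, 9.42 and 21.6 CPM in C and 29.1, 28.9 and 32.5 CPM in SES (0.75 ± 0.29, adjusted p = 0.241), and Pou3f1, a transcription factor of CA1 neurons, 0.37 ± 0.12 (adjusted p = 0.17). Nts, also on the CA1 list, was on the other side at −0.94 ± 0.41. Nnat, an imprinted proteolipid gene on the CA3 list, had −0.65 ± 0.20 (adjusted p = 0.157), whereas Map3k15 of that list had 1.06 ± 0.58. Parvalbumin, the calcium buffer of fast-spiking interneurons, had 57.1, 70.9 and 52.1 CPM in C and 41.6, 41.9 and 41.8 CPM in SES. All SES mice lay below all C mice at nearly the same level as each other, but the log2 fold change of Pvalb did not pass (−0.52 ± 0.13, adjusted p = 0.124). The 18 interneuron markers had a median of −0.08 and no call, with 7 positive and 11 negative values. Of them 1 lay fully above C (Npy at 0.33 ± 0.14) and 1 fully below (Pvalb), beside 12.8% and 13.2% of all genes tested.

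Postsynaptic density scaffolds and kinases had positive values in 22 of 25 members (median 0.23), with 9 fully above C, 0 fully below (beside 12.8% and 13.2% of all genes tested) and no call. Camk2a, the synaptic calcium-calmodulin kinase, had 4056.9, 3823.5 and 4058.2 CPM in C and 5296.3, 5005.5 and 5485.5 CPM in SES, so the SES mice lay above C (0.40 ± 0.09, adjusted p = 0.111). Dlg4, the gene of the scaffold PSD-95, had 0.36 ± 0.09 (adjusted p = 0.123) and Shank2 0.54 ± 0.17 (adjusted p = 0.166). Histone methylation and chromatin remodelling enzymes had 32 of 34 positive values (median 0.26), with 22 fully above C, 0 fully below (beside the same shares) and no call. Arid1b, a subunit of the BAF remodeller, came nearest at 0.41 ± 0.08 (adjusted p = 0.0733), followed by Crebbp, a histone acetyltransferase gene, at 0.64 ± 0.16 (adjusted p = 0.123).

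The lists of respiration, the ribosome and the proteasome had negative medians in SES against C, with no member called. All 74 oxidative phosphorylation genes had negative values (median −0.28), and 60 had all SES mice below all C mice, beside 13.2% of all genes tested. Uqcrb, a subunit of complex III, had 123.7, 124.1 and 132.9 CPM in C and 100.8, 86.5 and 75.6 CPM in SES (−0.53 ± 0.11, adjusted p = 0.0875), and Ndufa5, of complex I, −0.53 ± 0.12 (adjusted p = 0.109). Summed over the 74 genes the level was 15713.9, 16929.5 and 17134.1 CPM in C and 14034.5, 13670.1 and 13639.5 CPM in SES, without overlap.

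Of 77 cytosolic ribosomal protein genes 75 had negative values (median −0.26) and 38 lay fully below C, beside 13.2% of all genes tested. Rpl23 had −0.41 ± 0.10 (adjusted p = 0.123) and Rpl5 −0.38 ± 0.09 (adjusted p = 0.124). Proteasome subunits had a median of −0.16, with 27 of 31 values negative. Of these subunits 18 lay fully below C and 1 fully above (Psmd3 at 0.18), beside 13.2% and 12.8% of all genes tested. Psmb7 had −0.37 ± 0.09 (adjusted p = 0.123). These lists also share short transcripts. Their median lengths were 824 bases for oxidative phosphorylation, 830 for the ribosome and 1512 for the proteasome, beside 3095 over all genes tested, 5472 for the postsynaptic density list and 8182 for the chromatin list. Over all genes, the median log2 fold change of SES against C was −0.12 for the 3594 genes with the shortest transcripts (median 1401 bases) and 0.11 for the 3593 with the longest (median 6100 bases). With offsets for GC content and length the medians were −0.15, −0.09 and −0.06 for the 3 short lists and 0.12 and 0.03 for the postsynaptic and chromatin lists. The called genes also differed in length, with a median of 1839 bases for the 7 lower and 3702 for the 19 higher. With the offsets 14 genes were called, 13 of them among the 26.

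**Figure D3:**
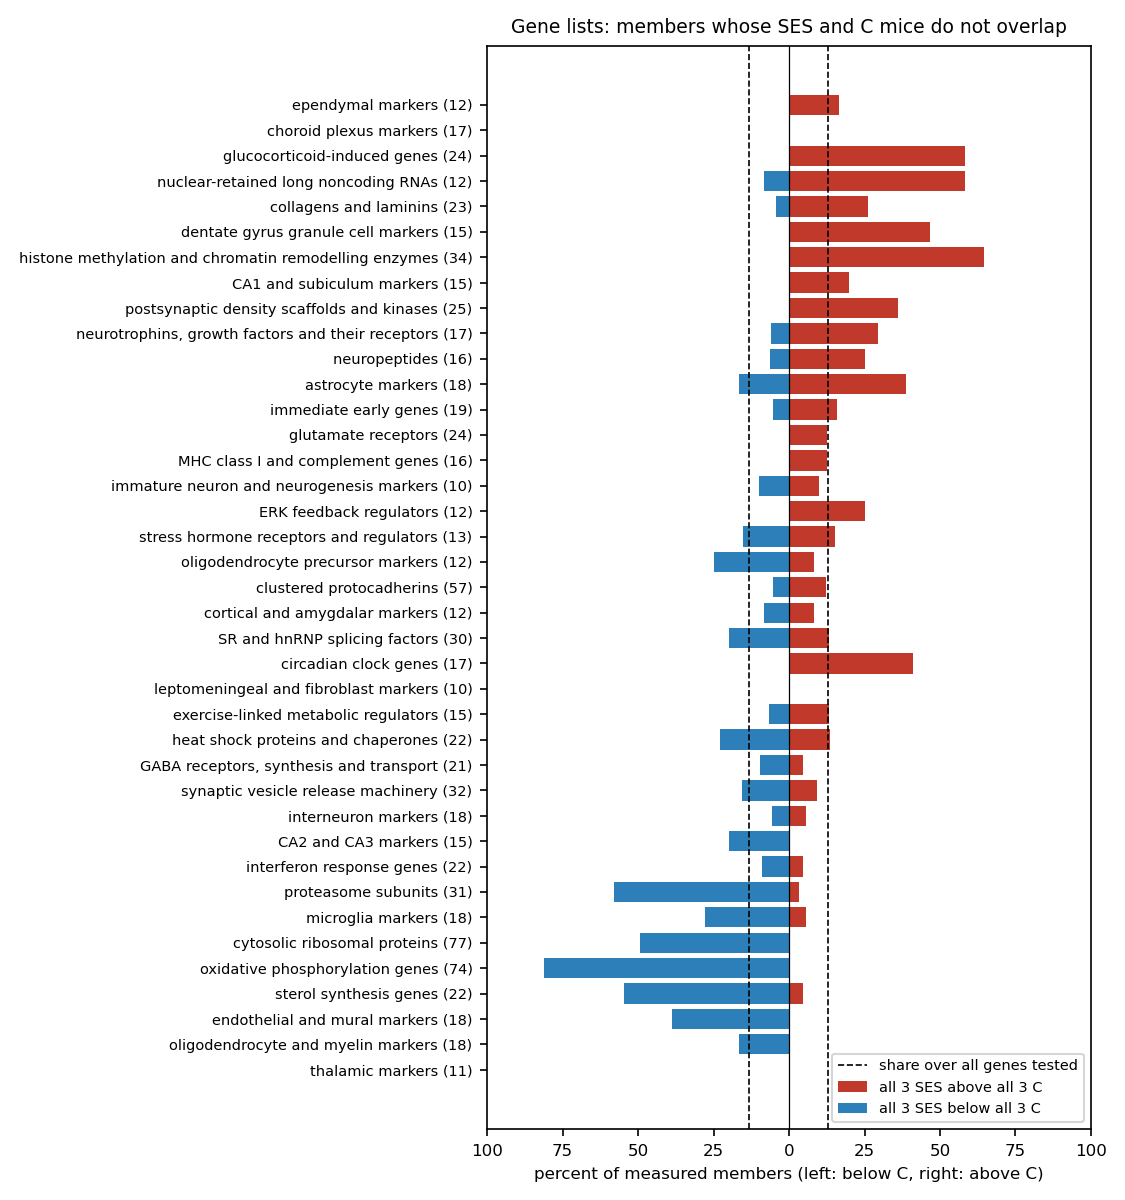
For each gene list with more than 2 measured members (rows, number of measured members in brackets), the percent of members whose 3 SES mice all lay above the 3 C mice (red, to the right) or all below (blue, to the left). Dashed lines give the same share over all genes tested, 12.8% above and 13.2% below; lists are ordered by their median log2 fold change.

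Markers of neighbouring tissue and of non-neuronal cells are given because they differed between libraries. All 17 measured choroid plexus markers had positive values (median 1.04), but their summed level was 4726.3, 141.3 and 216.5 CPM in C mice 2, 8 and 12 and 1338.8, 6217.8 and 3044.6 CPM in SES mice 9, 10 and 12. C mouse 2 lay among the SES mice, no marker separated the groups, and the list's median was 4.71 without C mouse 2. The 12 ependymal markers had a median of 1.08 with summed levels of 54.2, 12.0 and 22.2 CPM in C and 43.6, 73.6 and 49.6 CPM in SES, again with overlap. The 11 thalamic markers had a median of −0.81 and summed levels of 505.5, 312.1 and 249.7 CPM in C and 252.9, 209.2 and 229.3 CPM in SES, and without C mouse 2 that median was −0.26. When choroid plexus level entered the fit as a covariate, 25 of the 26 genes stayed called.

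Endothelial and mural markers had negative values in 16 of 18 (median −0.32), with 7 fully below C, beside 13.2% of all genes tested, and no call. Itm2a had 45.9, 50.1 and 38.7 CPM in C and 31.7, 29.2 and 19.5 CPM in SES (−0.74 ± 0.17, adjusted p = 0.111), whereas Cldn5, the tight junction claudin that defines brain endothelium, had −0.38 ± 0.33 with overlapping groups. The list's median was −0.08 without C mouse 2. Microglia markers had a median of −0.17 and no call. Aif1 had −0.96 ± 0.27 (adjusted p = 0.142) and Tyrobp −0.46 ± 0.13 (adjusted p = 0.144), while Csf1r, the receptor on which microglia depend, had 0.31 ± 0.10 (adjusted p = 0.174) and Tmem119 0.24 ± 0.21.

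Nuclear-retained noncoding RNAs had a median of 0.53, with 7 of 12 fully above C, 1 fully below (beside 12.8% and 13.2% of all genes tested) and no call. Beside Malat1, Meg3 had 441.8, 338.6 and 323.3 CPM in C and 760.2, 1158.9 and 688.8 CPM in SES (1.24 ± 0.62, adjusted p = 0.343; this gene was chosen after its values were seen), and Neat1, the scaffold of paraspeckles, 0.79 ± 0.28 (adjusted p = 0.214). The mean log2 CPM of Malat1, Neat1, Meg3, Snhg11 and Miat, centred over all mice, served as a covariate. It was −0.63, −1.32 and −0.97 in C mice 2, 8 and 12 and 0.16, 0.65 and 0.32 in SES mice 9, 10 and 12. Since it separated the groups, its part cannot be told apart from SES against C. With it 14 of the 26 genes stayed called, among them Fam107a, Hif3a, Opalin, Fabp7, Hmgcs1 and Msmo1. Sult1a1, Mertk and Pdzd2 were among those that did not (adjusted p = 0.067, 0.0514 and 0.0955). Each of the 26 held its direction. Collagens and laminins had a median of 0.47, with Col11a1 at 1.65 ± 0.51 (adjusted p = 0.166), and 0 of 23 called. With the nuclear RNA covariate that list's median was 0.03.

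**Figure D4:**
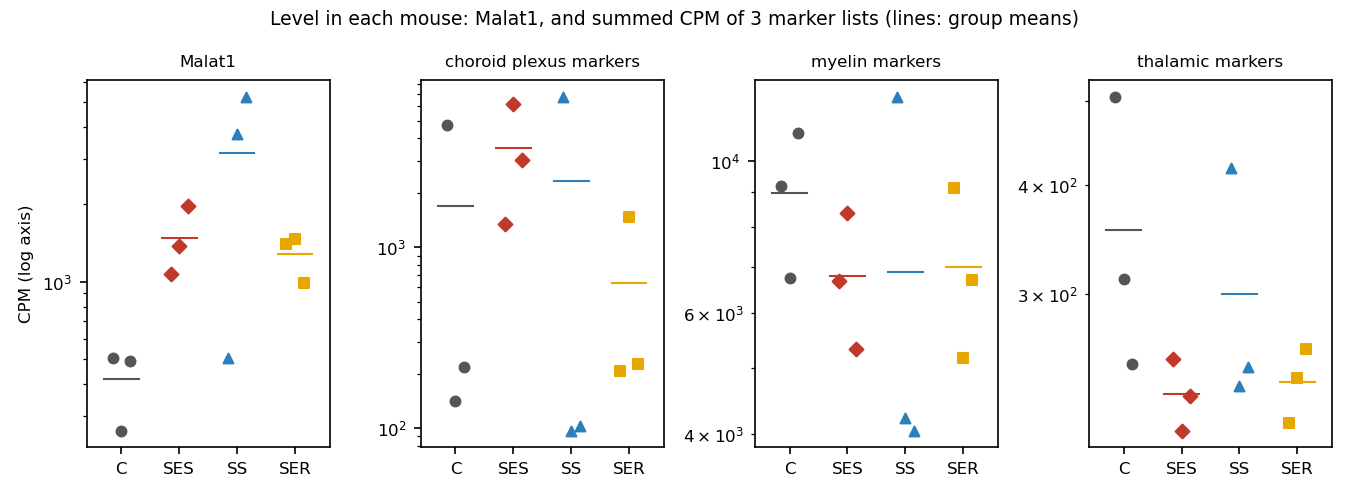
CPM in each mouse on a log axis (y) by group (x): Malat1, and the summed CPM of choroid plexus, myelin and thalamic markers; short lines are group means. All 3 SES mice exceed the 3 C mice for Malat1, while the SES and C mice overlap in the 3 marker sums.

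None of the 17 measured neurotrophins, growth factors and their receptors was called. Their median was 0.23, 13 values were positive, and 5 lay fully above C and 1 fully below, beside 12.8% and 13.2% of all genes tested. Bdnf, the neurotrophin induced by running in many studies, had 45.1, 44.0 and 53.8 CPM in C and 49.5, 57.2 and 52.3 CPM in SES, with overlap (0.15 ± 0.10, adjusted p = 0.454). Its receptor gene Ntrk2 had 0.31 ± 0.11 (adjusted p = 0.217) and the activity-induced secretory gene Vgf 116.3, 128.1 and 128.8 CPM in C and 179.8, 200.3 and 188.1 CPM in SES. Vgf separated the groups but did not pass (0.61 ± 0.14, adjusted p = 0.107). Igf1 had −0.24 ± 0.13 (adjusted p = 0.376) and Fgfr1, a fibroblast growth factor receptor gene, 0.49 ± 0.17 (adjusted p = 0.214).

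The 19 immediate early genes had a median of 0.15 and no call. Fos, a gene switched on within minutes of neuronal activity, overlapped between the groups (−0.20 ± 0.42, adjusted p = 0.847). Egr4 had 16.2, 19.2 and 22.6 CPM in C and 31.7, 37.7 and 32.8 CPM in SES, with all SES mice higher (0.82 ± 0.20, adjusted p = 0.124). The 15 exercise-linked metabolic regulators had a median of −0.03 with no call. Glutamate receptors (24 genes, median 0.13) and GABA genes (21 genes, median −0.05) had no call, with Grin1, the obligatory NMDA receptor subunit, at 0.41 ± 0.13 (adjusted p = 0.163).

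The other stressed groups are set beside SES for the same genes. All 3 comparisons share the C mice, and the genes were picked by SES against C, so a larger size in SES than in the other groups is built into the choice. Against C, 1430 genes passed in SS (9.83%) and 173 in SER (1.19%). Fam107a had 0.30 ± 0.12 in SS against C (adjusted p = 0.128), 1.11 ± 0.13 in SER against C (adjusted p = 0.00165) and 0.93 in SES against C. Hif3a had 1.42 in SS, 1.13 in SER and 1.24 in SES, each past the threshold. Tfcp2l1 had 0.34 (adjusted p = 0.349) in SS, 1.12 in SER and 1.29 in SES. For the genes that fell, Opalin had −1.01 in SS, −1.38 in SER and −1.90 in SES, Fabp7 −0.96, −1.18 and −1.70, and Hmgcs1 −0.57, −0.55 and −0.68, each past the threshold. List medians in SS, SER and SES against C were 0.42, 0.40 and 0.56 for glucocorticoid-induced genes. They were −0.11, −0.31 and −0.29 for sterol synthesis, and −0.35, −0.27 and −0.28 for oxidative phosphorylation. Ribosomal protein genes had −0.43, −0.11 and −0.26, and the chromatin list 0.35, 0.32 and 0.26. Some lists changed sign between groups, such as choroid plexus markers at 0.68, −0.97 and 1.04.

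**Figure D5:**
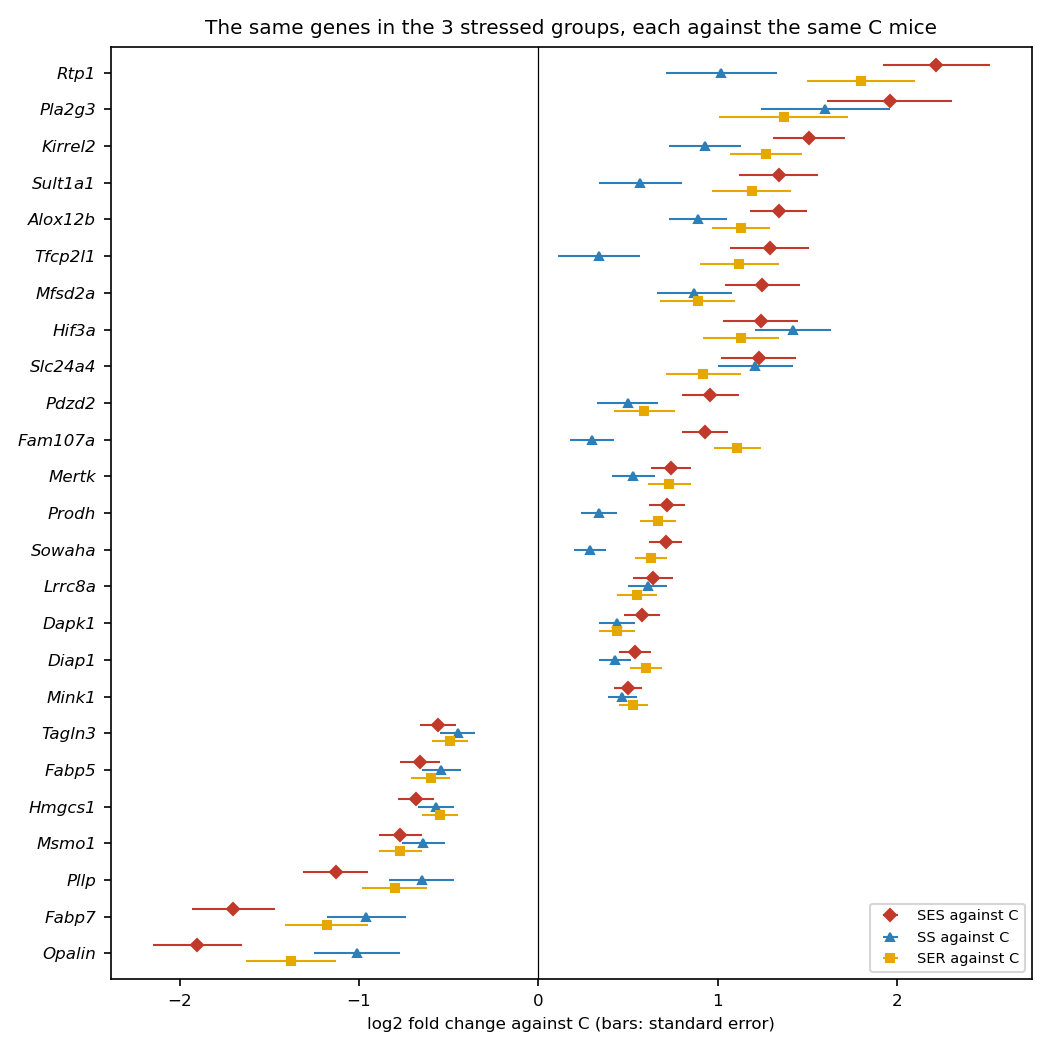
Log2 fold change (x axis, with standard error bars) of 25 of the 26 genes in SES (red diamonds), SS (blue triangles) and SER (orange squares), each against the same 3 C mice. All 3 groups lie on the same side of C in every row; the rows were chosen by SES against C.

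The direct tests did not separate SES from either group in these genes. SES against SS had 0 called of 14541 genes (0%) in edgeR's test, with 1310 at an unadjusted p under 0.05, 17 called by DESeq2 and 0 by limma-voom. The closest gene was Pou3f1, at 101.2 ± 7.23 CPM in SES and 58.7 ± 7.87 in SS (0.79 ± 0.12, adjusted p = 0.177), and SES against SS was 0.62 ± 0.12 for Fam107a, −0.89 ± 0.26 for Opalin and −0.17 ± 0.20 for Hif3a. Leaving out SS mouse 18 raised the count to 1283 genes, 8 of them among the 26. Each of the 26 had an adjusted p of 1 in SES against SER, with −0.19 for Fam107a and −0.52 for Opalin. The 4 genes called in SES against SER (0.0275%), Lars2, Zc3h7a, Cmss1 and Filip1l, were listed at 0 counts in all 3 SER mice and none of them was called in SES against C. The 0 counts are possibly a difference in how the SER tables were made, which was not tested. A p that missed the threshold does not show that the groups were alike.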

How the data were processed

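For every mouse the authors deposited estimated counts of 33299 RefSeq transcripts, as whole numbers and without normalization. TopHat and the mm10 build were used, per the submitters' processing notes. RNA came from Trizol extraction (1.3 µg per library, NEBNext Ultra II Directional kit), per the labels' protocols. Which program counted, with which strand setting and gene models, is not given in the sources used here. Reads of overlapping, antisense or near-identical genes therefore cannot be told apart.

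Transcript values were summed over 23183 gene symbols, of which filterByExpr (minimum count 10) kept 14541. All 12 libraries entered 1 edgeR 4.0.16 quasi-likelihood fit with TMM scaling (R 4.3.3, 8 residual degrees of freedom, biological coefficient of variation 15.7%). The test was two-sided, p-values were adjusted by Benjamini-Hochberg over all genes tested, and standard errors were derived from the F statistic. The p-values weigh a group difference against the spread between these samples, estimated over all 12 libraries, SS and SER included. Fits were checked on simulated data. DESeq2 1.42.0 and limma 3.58.1 served as alternatives.

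The members, the 40 gene lists and the naming rule were chosen with earlier results of these data known. Named are up to 12 genes per direction with the smallest p among called genes with separated groups. To these come up to 3 members with the smallest p of each list with a called member and 2 of each other list. The rule also always names 10 genes, likewise chosen with earlier results known (Bdnf, Nr3c1, Nr3c2, Fkbp5, Igf1, Fos, Pou3f1, Fam107a, Ttr and Malat1). All other called genes, and further list members given as examples, were named after their values were seen. Promoters are RefSeq windows of GRCm38.p6, and gene coordinates, counted from 1, follow the RefSeq annotation of that assembly. Some genes that these rules name, among them 1 of the 26 called, are not reported here, although they stay in all counts and medians.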

Additional observations from a re-analysis of the deposited data

Results flagged for a closer look

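In SES against SER, 4 genes passed because every SER mouse was listed at 0 counts: 0 counts allow at most 3 per library, which is 0.327 CPM in the shallowest SER library and covers counting error only. Against that floor the SES level was at least 30400-fold higher for Lars2, a mitochondrial leucyl-tRNA synthetase gene, with 74128 to 201495 counts per SES mouse. It was at least 83.2-fold higher for Zc3h7a (383 to 413 counts), 24.9-fold for Cmss1 (87 to 145 counts) and 9.91-fold for Filip1l (33 to 63 counts). Adjusted p-values were at most 0.000502 in edgeR's test. The other 9 mice of the series each had at least 23 counts of each of the 4 genes. Whether these 4 genes were counted in the SER tables as in the others was not tested, so the 0 counts and the folds describe the deposited tables only.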

How the results depend on the processing

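Against the 26 calls in SES against C, the DESeq2 Wald test gave 412, a fit of only the 2 groups 160, transcripts as deposited 4 (2 of them in genes of the 26, Alox12b and Sowaha), and the choroid plexus level as a covariate 80. Settings chosen after seeing the data gave 203 without the 3 SS samples, 929 when C mouse 2 and SS mouse 18 were left out, and 14 with GC content and length offsets, of which 13 were among the 26. Leaving out 1 mouse at a time gave 0 to 27 calls. Each of the 26 held its sign in every gene-level setting run. For the fits that left out a mouse, the separated groups made this all but certain beforehand. SES against SS, with 0 calls, had 17 by the DESeq2 Wald test, 1 with the choroid plexus covariate, 1430 without C mouse 2 and SS mouse 18, and 0 to 1283 when 1 mouse was left out. The cause was not tested. SES against SER had 3 to 6 calls in all settings run. No paired analysis was possible because SES and C share only the mouse number 12, given within each group. With 3 mice a group, small differences in genes with few counts are not resolved.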
